A study of Mus musculus with 2 samples.

Results

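The 5 genes described here are 2 chemokine receptors of lymphocytes, Cxcr3 and Cxcr6, and 3 of their ligands, Cxcl9, Cxcl10 and Cxcl16. They were taken by symbol from the 32285 genes of the deposited tables, and all 5 had UMIs in both libraries. The ligands were read mainly in myeloid cells and the receptors mainly in lymphocytes. The study profiled mouse colon lamina propria cells by droplet single-cell RNA-seq, in which each unique molecular identifier (UMI) stands for 1 captured transcript. Its title speaks of WT mice and of mice that lack CD163+ macrophages. The 2 libraries are labelled CD163_FL and CD163_NC, and the labels do not say which mice gave which library, so no genotype is given to either. Age, strain, sex, the means of removing the macrophages and the number of animals pooled are not stated in the sources used here. Both libraries share the same handling per the labels: cells from the interphase of a Percoll gradient, staining for CD45, and removal of dead cells with 7-AAD.

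CXCL9 and CXCL10 are small secreted chemokines that many cells make after interferon gamma, and CXCL10 also after type I interferon. Both bind CXCR3, a G protein-coupled receptor of activated type 1 helper, CD8 and natural killer cells. CXCL16 is made as a transmembrane protein, mostly by macrophages and dendritic cells, can be shed by ADAM10 and ADAM17, and binds CXCR6, a receptor of activated, tissue-resident and innate-like lymphocytes.

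There was 1 library per label, so no difference below has a replicate check and no test was possible. Intervals are 95% intervals and cover counting error only. The animals, the preparation and the label cannot be told apart. After filtering, 13716 cells of CD163_FL and 9756 cells of CD163_NC remained, with medians of 6461.5 UMIs per cell in CD163_FL and 6040 in CD163_NC. The libraries held different mixes of cells. Mononuclear phagocytes (macrophage-, monocyte- and dendritic cell-like clusters) were 1637 cells, or 11.9%, of CD163_FL and 656 cells, or 6.72%, of CD163_NC. T cells and innate lymphocytes, called lymphocytes below, were 7779 cells (56.7%) of CD163_FL and 3629 cells (37.2%) of CD163_NC. Cd163 itself had 8 UMIs in all kept cells of CD163_FL and 15 in those of CD163_NC, too few to tell the labels apart. Despite the CD45 label, 96 cells of CD163_FL and 254 of CD163_NC were epithelial cell-like. The labels of the classes were checked on defining genes: Cd3e had a UMI in 76.8% of CD4 T cell-like cells in CD163_FL and 79.2% in CD163_NC, Cd8a in 76.5% of CD8 T cell-like cells in CD163_FL and 62.4% in CD163_NC, and Lyz2 in 72.1% of phagocytes in CD163_FL and 77.6% in CD163_NC. The libraries shared 49 cell barcodes, of which 38 were kept in both; without such cells the 5 compartment ratios below were 0.73, 0.23 and 0.38 for Cxcl9, Cxcl10 and Cxcl16 in phagocytes, and 0.57 and 1.61 for Cxcr3 and Cxcr6 in lymphocytes.

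Levels are CPM, the UMIs of a gene over all UMIs of a group of cells, summed over its cells and scaled to 1000000. Ratios are CD163_FL over CD163_NC on a log2 scale. A gene was called higher or lower at a fold of 1.5 or more with at least 20 UMIs over both libraries. Over all kept cells 16.4% of the 18751 genes with 20 UMIs were called higher in CD163_FL and 23.3% lower, which is the background for any such call.

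Cxcl9 (ENSMUSG00000029417) and Cxcl10 (ENSMUSG00000034855) are neighbours on the minus strand of mouse chromosome 5 in mm10, at chr5:92321347-92328079 and chr5:92346638-92348889, with 18558 bases between them. Cxcl10 lies wholly within the span of Art3, a gene on the other strand. Cxcl16 (ENSMUSG00000018920) lies at chr11:70453983-70459984 on the minus strand and overlaps the opposite gene Zmynd15 by 552 bases. Cxcr3 (ENSMUSG00000050232) lies at chrX:101731535-101734269 on the minus strand. Cxcr6 (ENSMUSG00000048521) lies at chr9:123806475-123811760 on the plus strand, inside the span of Fyco1 on the other strand. The use of strand in counting is not stated, so reads of these opposite partners cannot be told apart. The counts of the partners were low beside the members in phagocytes, with Art3 at 6.25 CPM in CD163_FL and 13.2 CPM in CD163_NC, and Zmynd15 at 14.7 CPM in CD163_FL and 18.3 CPM in CD163_NC. Fyco1 had 52.3 CPM in CD163_FL and 31.2 CPM in CD163_NC lymphocytes, below Cxcr6 in both.

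The 250 bases before the annotated starts of the 2 neighbouring CXCR3 ligands are shown because Cxcl10 transcripts reached many cells beyond the phagocytes that held both ligands, although the genes are adjacent. They are RefSeq sequence of GRCm38.p6, printed 5′ to 3′ on the minus strand, where the genes lie. They cover chr5:92328080-92328329 for Cxcl9 and chr5:92348890-92349139 for Cxcl10. Capitals mark matches to the interferon-stimulated response element (ISRE; GAAA, any pair of bases, GAAA) or to the NF-kB consensus; the interferon gamma activated site (GAS, letters TTCNNNGAA) was searched too, and all were searched on both strands.
Cxcl9: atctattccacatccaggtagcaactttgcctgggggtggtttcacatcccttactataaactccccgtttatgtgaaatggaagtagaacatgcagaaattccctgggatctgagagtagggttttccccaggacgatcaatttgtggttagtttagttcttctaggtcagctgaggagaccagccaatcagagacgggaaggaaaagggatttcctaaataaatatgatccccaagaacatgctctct
Cxcl10: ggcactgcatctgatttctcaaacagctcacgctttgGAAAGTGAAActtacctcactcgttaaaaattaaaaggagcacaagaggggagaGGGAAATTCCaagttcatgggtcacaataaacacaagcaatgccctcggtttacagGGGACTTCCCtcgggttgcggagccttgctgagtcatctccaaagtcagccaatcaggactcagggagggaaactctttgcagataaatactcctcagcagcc
The Cxcl10 window held 1 ISRE match, 213 to 204 bases before the start, and 2 NF-kB matches, at 159 to 150 and at 103 to 94 bases, none of which overlap. The printed Cxcl9 window held no match to these letters, which says nothing of the factors. Any link between the matches and the cells that held each transcript was not tested. Of 32851 promoter windows of the same length, 2.98% held the ISRE letters, 7.02% the GAS letters and 3.9% an NF-kB match.

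The transcripts of the ligands Cxcl9 and Cxcl16 lay almost wholly in mononuclear phagocytes, while most Cxcl10 transcripts lay elsewhere. Phagocytes held 95.4% of all Cxcl9 UMIs in CD163_FL and 93.7% in CD163_NC. For Cxcl16 they held 90.2% in CD163_FL and 87.4% in CD163_NC. For Cxcl10 they held 36.7% in CD163_FL and 13% in CD163_NC, and plasma cell-like cells held 43.3% in CD163_FL and 62.9% in CD163_NC. The receptors were mainly lymphocyte transcripts: lymphocytes held 87.7% of Cxcr6 UMIs in CD163_FL and 81.5% in CD163_NC, and 85.3% of Cxcr3 UMIs in CD163_FL and 57.8% in CD163_NC. Plasma cell-like cells held 4.87% of the Cxcr3 UMIs of CD163_FL and 28.6% of those of CD163_NC.

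**Figure D1:**
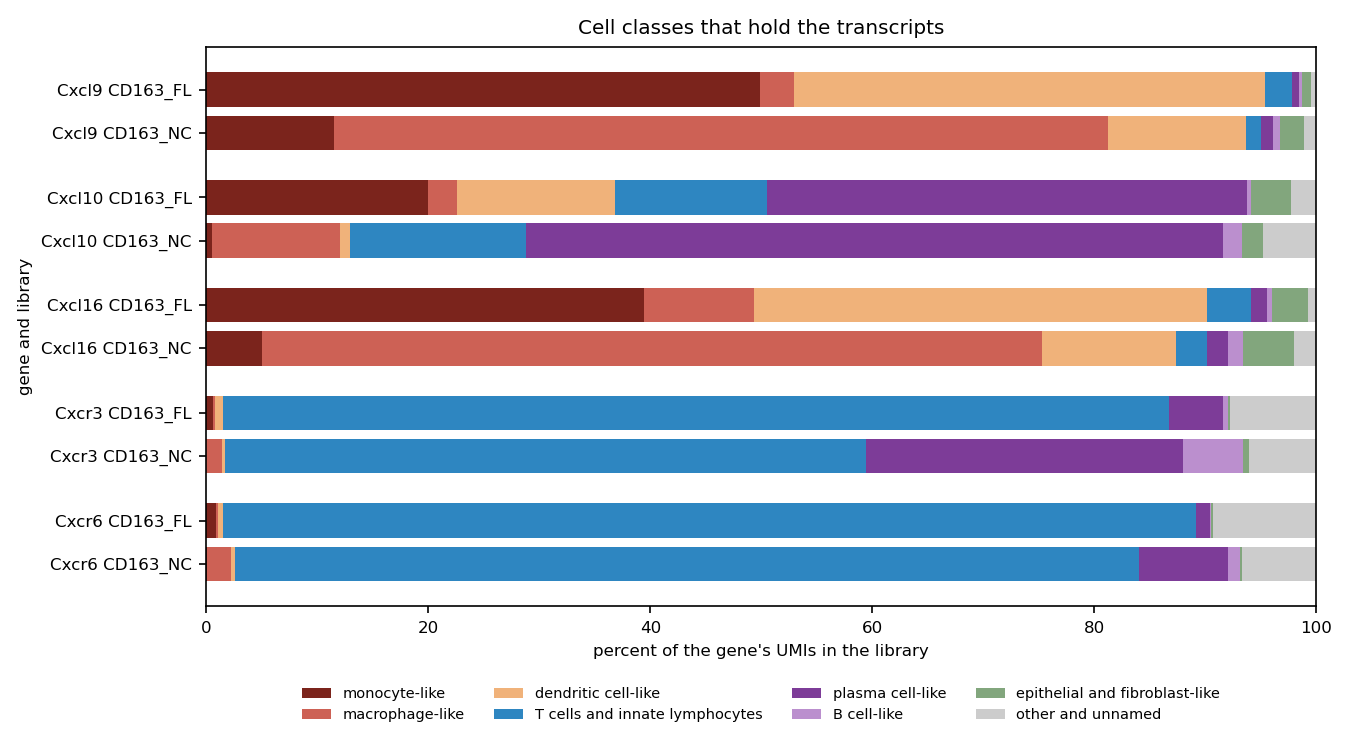
Share of each gene's UMIs (percent, x axis) by cell class, with a bar for CD163_FL above one for CD163_NC for each gene. Cxcl9 and Cxcl16 bars are filled by phagocyte classes in both libraries, Cxcl10 bars by plasma cell-like cells for 43.3% in CD163_FL and 62.9% in CD163_NC.

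The phagocyte classes behind those shares differed. In CD163_FL 49.9% of Cxcl9 UMIs were in the monocyte-like cluster led by Cd14 and 42.5% in the dendritic cell-like cluster led by Cst3, against 11.5% and 12.4% in CD163_NC. The clusters named macrophage-like, led by C1qa and by Aoah, together held 3.03% in CD163_FL and 69.8% in CD163_NC. For Cxcl16, the Cd14-led cluster held 39.4% in CD163_FL, and the clusters named macrophage-like held 70.3% in CD163_NC. The numbers of cells differed in the same way: 713 in the Cd14-led cluster in CD163_FL and 19 in CD163_NC, 404 in the Cst3-led one in CD163_FL and 75 in CD163_NC, and 520 in the clusters named macrophage-like in CD163_FL and 562 in CD163_NC. The line between monocyte- and macrophage-like cells depended on the clustering. When phagocytes were clustered again on their own, sub-clusters named monocyte-like held 928 cells in CD163_FL and 329 in CD163_NC, and those named macrophage-like 131 cells in CD163_FL and 71 in CD163_NC. Of the Aoah-led cluster 339 cells in CD163_FL and 62 in CD163_NC, and of the C1qa-led cluster 30 in CD163_FL and 255 in CD163_NC, fell in monocyte-like sub-clusters.

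Cxcl9, the CXCR3 ligand made chiefly after interferon gamma, had 10444 UMIs in the phagocytes of CD163_FL and 2409 in those of CD163_NC. Its level was 768 CPM (753 to 783) in CD163_FL and 459 CPM (441 to 478) in CD163_NC, a log2 ratio of 0.74 (0.68 to 0.81), and it was the only ligand of the 3 called higher over all phagocytes. In that comparison 14.2% of 12418 genes were called higher and 28.1% lower. A Cxcl9 UMI was found in 44.5% of phagocytes of CD163_FL and 24.5% of CD163_NC, or 24.6% in CD163_FL and 12.8% in CD163_NC with each cell thinned to 1000 UMIs. B cell-like cells, which should lack it, gave 1.82% in CD163_FL and 0.615% in CD163_NC as deposited and 0.842% in CD163_FL and 0.155% in CD163_NC when thinned. The median depth was 7023 UMIs in CD163_FL and 7518 in CD163_NC phagocytes, and 3961.5 UMIs in CD163_FL and 4971 in CD163_NC B cell-like cells. The value changed with how phagocytes were weighed or chosen. Weighted by the class makeup of CD163_NC the log2 ratio was −0.57, by its cluster makeup 0.10, and with phagocytes taken by a marker gate 1.54. The class makeup does not level the clusters within a class. The Aoah-led cluster, low in Cxcl9, was 468 of 520 macrophage-like cells in CD163_FL and 184 of 562 in CD163_NC.

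Cxcl10 had 9035 UMIs in CD163_FL and 2955 in CD163_NC phagocytes, or 664 CPM (651 to 678) in CD163_FL and 564 CPM (543 to 584) in CD163_NC. Its log2 ratio of 0.24 (0.18 to 0.30) was within 1.5-fold. It was seen in 50.7% of phagocytes in CD163_FL and 52.4% in CD163_NC, and in 27.8% in CD163_FL and 27.5% in CD163_NC when thinned, against 1.68% of thinned B cell-like cells in CD163_FL and 2.28% in CD163_NC. RNA of plasma cells, which also hold Cxcl10, was widespread: Jchain, of secreted antibodies, had a UMI in 93.2% of phagocytes in CD163_FL and 95.1% in CD163_NC. With the whole plasma cell-like level of each library subtracted, 343 CPM in CD163_FL and 421 CPM in CD163_NC, the Cxcl10 log2 ratio was 1.18. That is an extreme setting. Plasma cell markers summed to 3673 CPM in CD163_FL and 6389 CPM in CD163_NC phagocytes. In lymphocytes they summed to 3229 CPM and 4699 CPM, with Cxcl10 at 61.6 CPM and 167 CPM in all. How much phagocyte Cxcl10 came from plasma cells was not tested. The Cxcl10 ratio in phagocytes took either sign by how they were weighed or chosen: −0.51 with the class makeup of CD163_NC, −0.01 with its cluster makeup and 0.94 with the marker gate. The class makeup has the same limit here as for Cxcl9.

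Cxcl16, the ligand of CXCR6, had 5205 UMIs in CD163_FL and 1548 in CD163_NC phagocytes, or 383 CPM (372 to 393) in CD163_FL and 295 CPM (281 to 310) in CD163_NC. The log2 ratio of 0.37 (0.29 to 0.46) was within 1.5-fold, and was 1.11 with the marker gate. It was seen in 70.5% of phagocytes of CD163_FL and 53.8% of CD163_NC, or 28.4% in CD163_FL and 21.6% in CD163_NC when thinned, against 0.421% of thinned B cell-like cells in CD163_FL and 0.155% in CD163_NC.

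The ligands also differed in how their transcripts were shared among phagocytes. The top 10% of phagocytes for each gene (164 cells in CD163_FL and 66 in CD163_NC) held 71.5% of Cxcl9 UMIs in CD163_FL and 89.9% in CD163_NC. They held 70.1% of Cxcl10 UMIs in CD163_FL and 63.8% in CD163_NC, but 42.8% of Cxcl16 UMIs in CD163_FL and 49.3% in CD163_NC. Single cells reached 151 Cxcl9 UMIs in CD163_FL and 114 in CD163_NC, and 179 Cxcl10 UMIs in CD163_FL and 94 in CD163_NC, while the highest Cxcl16 cell had 34 UMIs in both. At least 10 Cxcl9 UMIs were found in 17.1% of phagocytes of CD163_FL and 8.99% of CD163_NC.

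Of the 4 phagocyte clusters, 3 had at least 20 cells in each library, and each ligand was called higher in 1 of these 3 and lower in 0. That cluster was led by Cst3, Htr7 and Tbc1d8 and was named type 1 dendritic cell-like from its markers. There Cxcl9 was 809 CPM in CD163_FL and 334 CPM in CD163_NC, a log2 ratio of 1.27 (1.11 to 1.44). Cxcl10 was 606 CPM in CD163_FL and 225 CPM in CD163_NC there (1.43, 1.23 to 1.63), and Cxcl16 410 CPM in CD163_FL and 226 CPM in CD163_NC (0.86, 0.66 to 1.07). In this cluster 18.6% of genes were called higher and 22.1% lower. Its makeup differed between libraries. In the second clustering 197 of its 404 cells in CD163_FL and 65 of its 75 in CD163_NC fell in an Xcr1- and Cadm1-rich type 1 dendritic cell-like sub-cluster, while 189 in CD163_FL and 4 in CD163_NC fell in a type 2 dendritic cell-like one. Within the type 1 sub-cluster as a whole (202 cells in CD163_FL, 72 in CD163_NC) Cxcl9 was 637 CPM in CD163_FL and 408 CPM in CD163_NC (0.64), Cxcl10 288 CPM in CD163_FL and 251 CPM in CD163_NC (0.20), and Cxcl16 277 CPM in CD163_FL and 201 CPM in CD163_NC (0.46).

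The macrophage- and monocyte-like clusters gave other ratios. In the cluster led by the complement genes C1qa and C1qb (52 cells in CD163_FL, 378 in CD163_NC), Cxcl9 was 408 CPM in CD163_FL and 497 CPM in CD163_NC (−0.29), Cxcl10 594 CPM in CD163_FL and 686 CPM in CD163_NC (−0.21) and Cxcl16 446 CPM in CD163_FL and 319 CPM in CD163_NC (0.48). There 16.5% of genes were called higher and 27.1% lower. The cluster led by Aoah, which had 0 macrophage markers among its 10 leading genes, was shallow, at 0.385 of the median depth of the libraries, and had low ligand levels. There Cxcl9 was 111 CPM in CD163_FL and 86.6 CPM in CD163_NC, Cxcl10 265 CPM in CD163_FL and 350 CPM in CD163_NC, and Cxcl16 258 CPM in CD163_FL and 203 CPM in CD163_NC (22.1% of genes higher, 34.0% lower). It held 468 of the 520 cells named macrophage-like in CD163_FL and 184 of the 562 in CD163_NC. The monocyte-like cluster led by Cd14, Ptgs2 and Thbs1 had 713 cells in CD163_FL, with 924 CPM of Cxcl9, 830 CPM of Cxcl10 and 384 CPM of Cxcl16. Its 19 cells in CD163_NC gave 1921 CPM of Cxcl9, 759 CPM of Cxcl10 and 571 CPM of Cxcl16, and so few cells limit any ratio there (35.6% of genes higher, 20.9% lower).

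Among the sub-clusters of CD163_FL each ligand had its own place. Cxcl9 was 1526 CPM in the monocyte-like sub-cluster led by Slc7a2, Saa3 and Nos2 (147 cells), where Cxcl10 was 425 CPM. Cxcl10 was 1737 CPM in the monocyte-like sub-cluster led by Plcb1 and Serpinb2 (226 cells), where Cxcl9 was 659 CPM. The type 2 dendritic cell-like sub-cluster (216 cells) was high for all, with 1217 CPM of Cxcl9, 1246 CPM of Cxcl10 and 641 CPM of Cxcl16. These sub-clusters had 2, 2 and 4 cells in CD163_NC, so they belong almost wholly to 1 library. In CD163_NC the largest sub-cluster was monocyte-like and led by Slfn4, Ly6c2 and the interferon-induced Ifit3 (50 cells in CD163_FL, 297 in CD163_NC), with Cxcl9 at 334 CPM in CD163_FL and 500 CPM in CD163_NC, Cxcl10 at 891 CPM in CD163_FL and 759 CPM in CD163_NC, and Cxcl16 at 142 CPM in CD163_FL and 206 CPM in CD163_NC. The C1qa- and Ms4a7-led macrophage-like sub-cluster (11 cells in CD163_FL, 70 in CD163_NC) had 1015 CPM of Cxcl16 in CD163_FL and 834 CPM in CD163_NC (0.28, within 1.5-fold). Its Cxcl9 was 150 CPM in CD163_FL and 535 CPM in CD163_NC (−1.84, −2.76 to −1.04). Its Cxcl10 was 346 CPM in CD163_FL and 702 CPM in CD163_NC (−1.02, −1.60 to −0.49). Both ratios rest on 11 cells of CD163_FL, with 13 Cxcl9 and 30 Cxcl10 UMIs, and so few cells limit them. The share of all genes called in this sub-cluster was not computed. A further 147 cells of CD163_FL and 179 of CD163_NC lay in sub-clusters led by T, B or plasma cell genes and were left unnamed, and their part in the phagocyte ratios is given in the closing section.

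**Figure D2:**
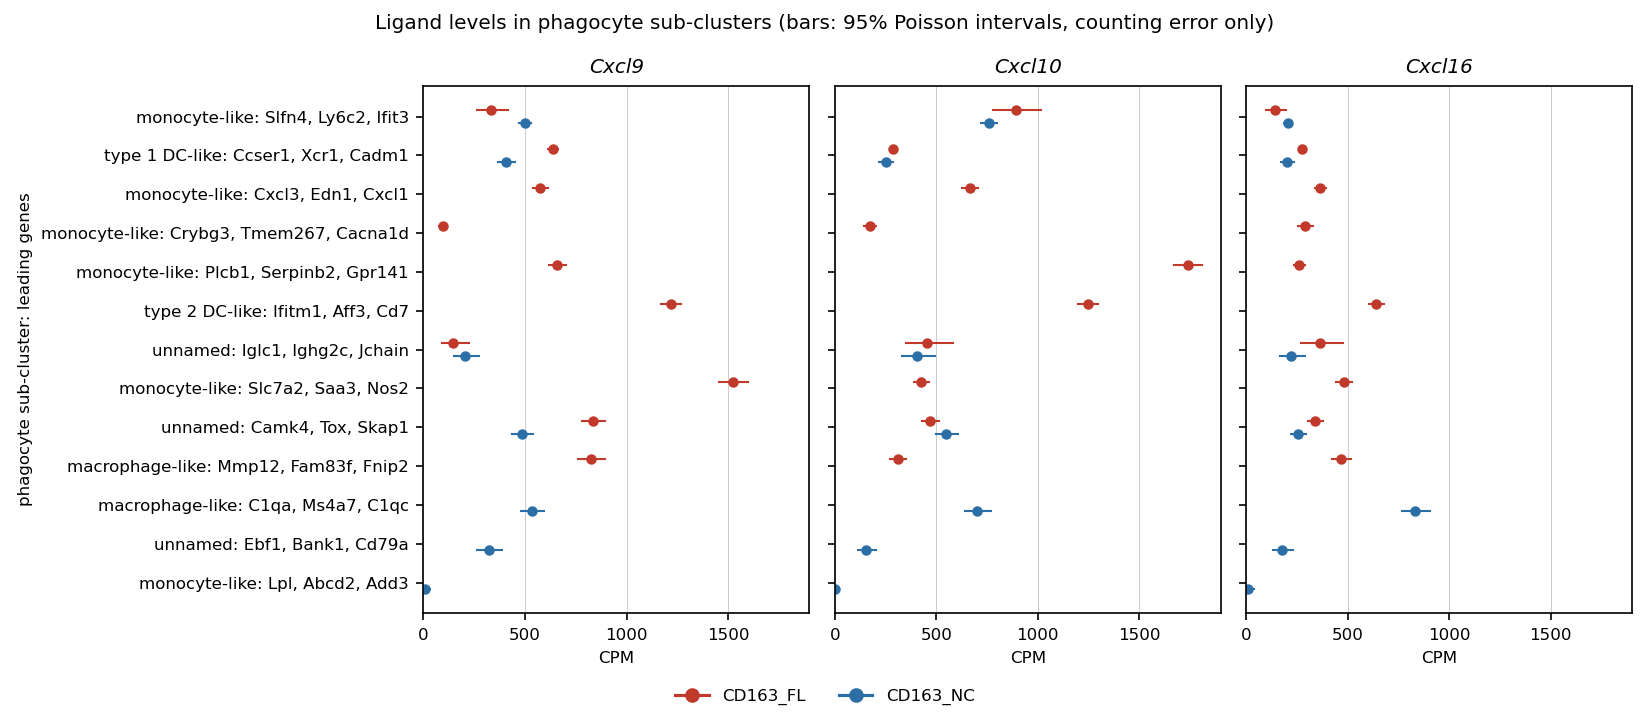
Levels of Cxcl9, Cxcl10 and Cxcl16 (CPM, linear axis, 95% Poisson intervals) in phagocyte sub-clusters, CD163_FL above CD163_NC; a point is drawn where the library has at least 20 cells. Cxcl9 peaks at 1526 CPM in the Slc7a2-led and Cxcl10 at 1737 CPM in the Plcb1-led sub-cluster of CD163_FL.

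Over all phagocytes, cells with Cxcl9 more often had Cxcl10 too. Among phagocytes with a Cxcl9 UMI 63.7% in CD163_FL and 73.9% in CD163_NC had Cxcl10, and of those without it 40.3% in CD163_FL and 45.5% in CD163_NC did. Cells with the UMI were also deeper, but with every cell thinned to 1000 UMIs the shares were 41.3% with and 23.4% without Cxcl9 in CD163_FL, and 40.7% with and 25.5% without it in CD163_NC. These shares pool clusters of different levels. Within the Cd14-led cluster of CD163_FL they were 64.9% (59.8 to 69.7) with and 57.6% (52.2 to 63) without Cxcl9 as deposited. Within the Cst3-led cluster of CD163_FL they were 65.2% (58.9 to 71.1) with and 36.9% (29.4 to 45) without. These shares within clusters are not matched for depth. Cxcl16 with Cxcl9 differed by library: when thinned, 26.2% of Cxcl16-positive phagocytes of CD163_FL had Cxcl9 against 23.9% of the others, while in CD163_NC the shares were 25.5% with and 9.27% without Cxcl16.

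Outside phagocytes Cxcl10 was spread over many classes, among them plasma cell-, innate lymphoid cell- and fibroblast-like cells. Plasma cell-like cells had 10651 Cxcl10 UMIs in CD163_FL and 14305 in CD163_NC, or 343 CPM (336 to 349) in CD163_FL and 421 CPM (414 to 428) in CD163_NC, a log2 ratio of −0.30, where 11.3% of genes were called higher and 16.9% lower. It was found in 47.8% of these cells in CD163_FL and 61.7% in CD163_NC, at median depths of 17315.5 UMIs in CD163_FL and 18003 in CD163_NC. When thinned the shares were 17.2% in CD163_FL and 20.9% in CD163_NC, above the 1.68% of thinned B cell-like cells in CD163_FL and 2.28% in CD163_NC. The top 10% of plasma cell-like cells held 72% of their Cxcl10 UMIs in CD163_FL and 62.4% in CD163_NC. Cxcl9 and Cxcl16 were near 0 in the same cells, at 2.44 CPM in CD163_FL and 0.854 CPM in CD163_NC for Cxcl9 and 2.61 CPM in CD163_FL and 1 CPM in CD163_NC for Cxcl16. Germinal center B cell-like cells had 14.8 CPM of Cxcl10 in CD163_FL and 26 CPM in CD163_NC, and B cell-like cells 15.4 CPM in CD163_FL and 22.6 CPM in CD163_NC (11.6% of genes higher, 15.4% lower in B cell-like cells). Type 3 innate lymphoid cell-like cells had 482 CPM in CD163_FL and 612 CPM in CD163_NC, and type 2 ones 204 CPM in CD163_FL and 310 CPM in CD163_NC. Fibroblast-like cells, 61 in CD163_FL and 3 in CD163_NC, had 590 CPM in CD163_FL. Epithelial cell-like cells had 187 CPM in CD163_FL and 84.6 CPM in CD163_NC.

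**Figure D3:**
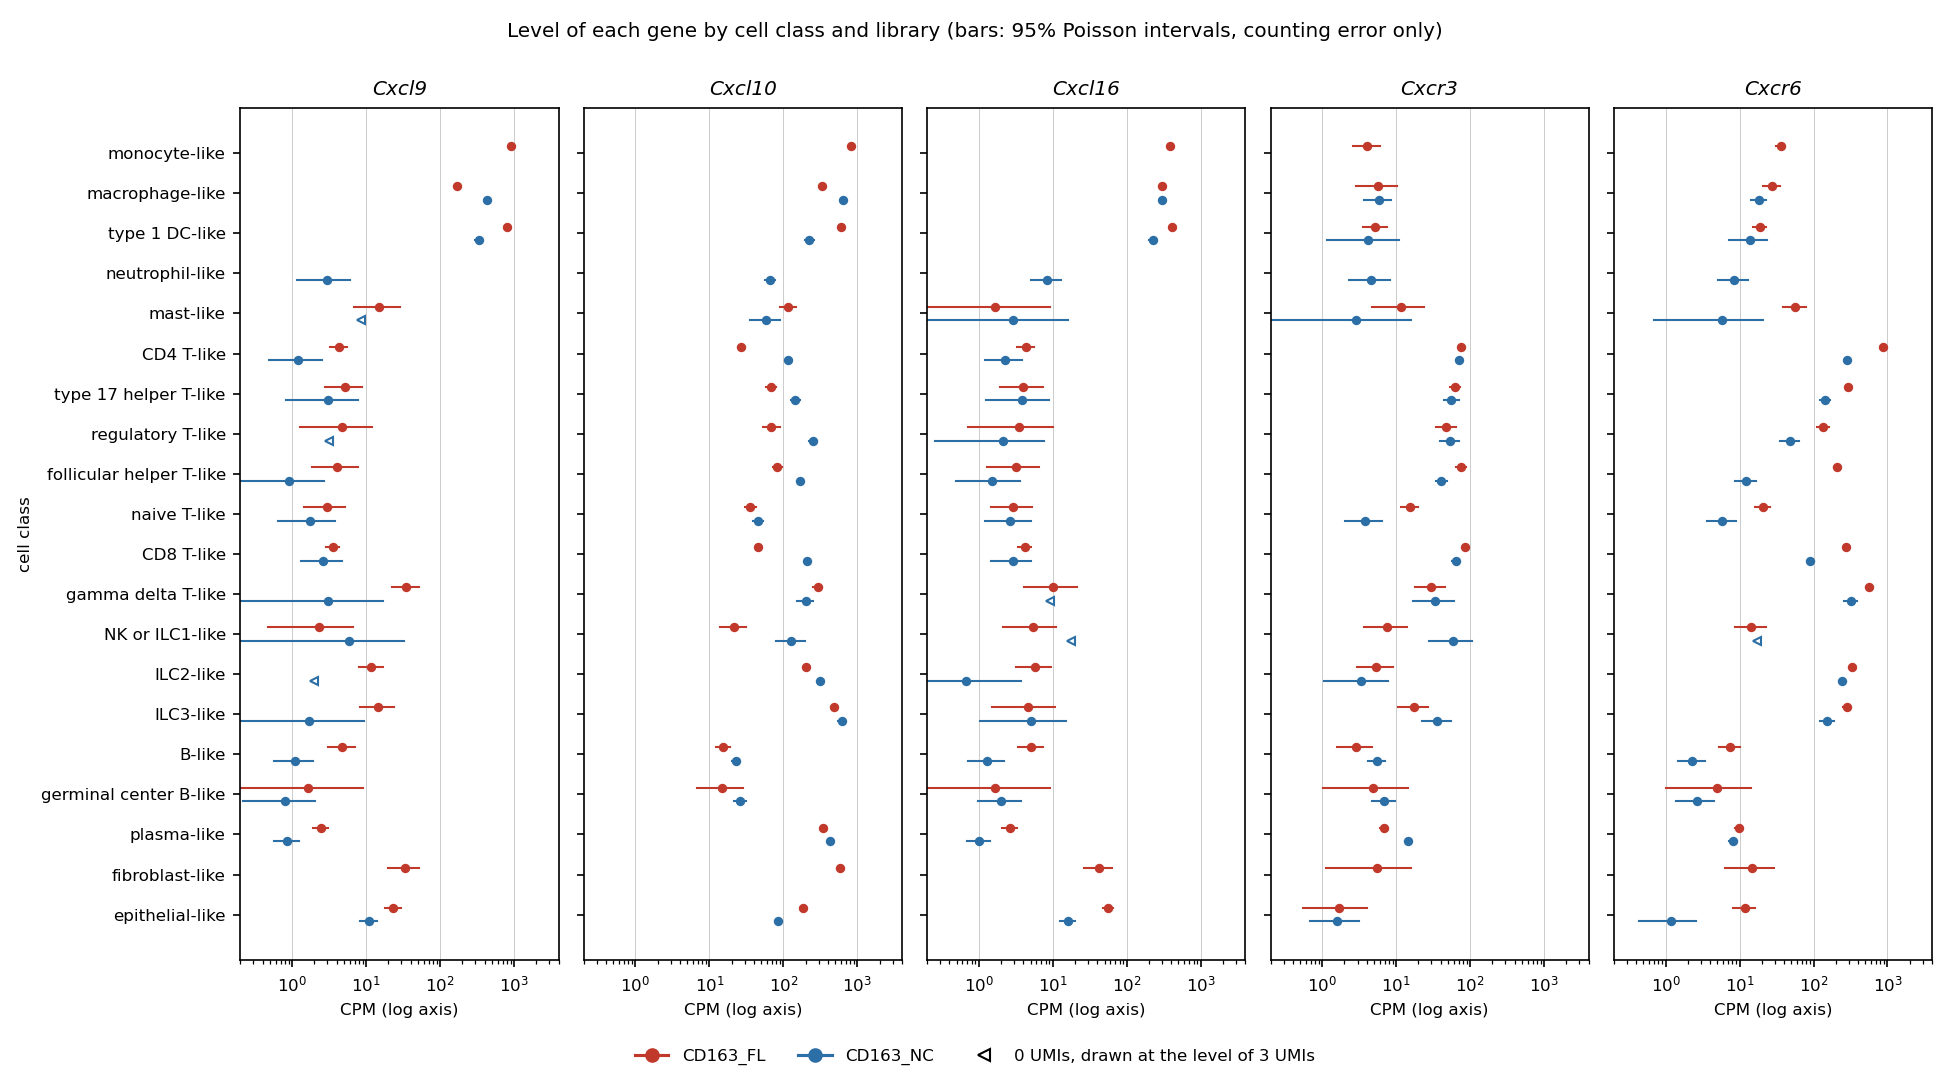
Level of each of the 5 genes (CPM, log axis) by cell class, CD163_FL above CD163_NC, with 95% Poisson intervals. A point is drawn where the library has at least 20 cells. Cycling, granulocyte progenitor-like and unnamed cells are not drawn. Open triangles mark 0 UMIs, drawn at the level of 3 UMIs. Cxcl9 is above 100 CPM in phagocyte classes alone, Cxcl10 also in plasma cell- and innate lymphoid cell-like classes, and Cxcr6 is highest in CD4 T cell-like cells of CD163_FL at 878 CPM.

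Within lymphocytes Cxcl10 was lower in CD163_FL, at 61.6 CPM (59.5 to 63.7) against 167 CPM (161 to 172) in CD163_NC, a log2 ratio of −1.43 (−1.50 to −1.37). Among all genes of lymphocytes 10.5% of 15082 were called higher and 22.8% lower. Over the 10 lymphocyte classes Cxcl10 was called higher in 0, lower in 7 and within 1.5-fold in 3. The CD4 T cell-like class had 27.1 CPM in CD163_FL and 114 CPM in CD163_NC (−2.07), the CD8 class 44.8 CPM in CD163_FL and 210 CPM in CD163_NC, and the regulatory class 68.8 CPM in CD163_FL and 253 CPM in CD163_NC (−1.88). Per cluster the log2 ratios were −1.17 in the Tnfrsf4-led and −0.63 in the Cd40lg-led CD4 T cell-like cells, and −0.51 to −1.31 in the 3 CD8 clusters. Gamma delta T cell-like cells differed in sign, at 291 CPM in CD163_FL and 200 CPM in CD163_NC (0.54). Markers of other cells also differed in these cells: their summed plasma cell marker level was 3229 CPM in CD163_FL and 4699 CPM in CD163_NC, that of neutrophil markers 11 CPM in CD163_FL and 212 CPM in CD163_NC, of epithelial markers 19.9 CPM in CD163_FL and 89.9 CPM in CD163_NC, of B cell markers 66.3 CPM in CD163_FL and 158 CPM in CD163_NC and of macrophage markers 23.6 CPM in CD163_FL and 44.8 CPM in CD163_NC. The part of these in the Cxcl10 levels was not tested.

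Cxcr6, the receptor of CXCL16, showed the widest gap of the 5 genes between the libraries in its own compartment. Lymphocytes held 22025 Cxcr6 UMIs in CD163_FL and 2853 in CD163_NC, or 404 CPM (399 to 409) in CD163_FL and 133 CPM (128 to 138) in CD163_NC. The log2 ratio was 1.61 (1.55 to 1.66), a fold of 3.05. It was found in 60.6% of lymphocytes of CD163_FL and 32.3% of CD163_NC, or 26.2% in CD163_FL and 10.1% in CD163_NC when thinned, against 0.673% of thinned B cell-like cells in CD163_FL and 0.259% in CD163_NC. At least 10 UMIs were found in 7.71% of lymphocytes of CD163_FL and 0.634% of CD163_NC. In the same cells the summed level of monocyte markers was 1572 CPM in CD163_FL and 1095 CPM in CD163_NC, while phagocytes themselves held 27.6 CPM of Cxcr6 in CD163_FL and 17.2 CPM in CD163_NC, far below lymphocytes.

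Cxcr6 was called higher in 8 of the 10 lymphocyte classes, within 1.5-fold in 1, and had under 20 UMIs in 1. CD4 T cell-like cells (1958 cells in CD163_FL, 1062 in CD163_NC) had 878 CPM (863 to 894) in CD163_FL and 280 CPM (266 to 294) in CD163_NC, a log2 ratio of 1.65, where 11.4% of genes were called higher and 19.3% lower. CD8 T cell-like cells (3102 cells in CD163_FL, 716 in CD163_NC) had 274 CPM in CD163_FL and 91 CPM in CD163_NC (1.59; 13.9% of genes higher, 20.4% lower). The largest ratio was in follicular helper T cell-like cells, which help B cells in germinal centers: 206 CPM (187 to 226) in CD163_FL and 12.2 CPM (8.7 to 16.6) in CD163_NC, a log2 ratio of 4.08 (3.61 to 4.58), from 456 UMIs in 317 cells of CD163_FL and 40 UMIs in 473 cells of CD163_NC. The overlapping gene Fyco1 had 37 CPM there in CD163_FL and 11 CPM in CD163_NC, the second of these close to Cxcr6. In these cells 12.3% of genes were called higher and 18.6% lower. Regulatory T cell-like cells had 136 CPM in CD163_FL and 47.8 CPM in CD163_NC (1.51; 14.8% of genes higher, 15.2% lower). Type 17 helper T cell-like cells, which make interleukin 17, had 297 CPM in CD163_FL and 143 CPM in CD163_NC (1.05; 16.7% higher, 17.3% lower).

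Gamma delta T cell-like cells had 570 CPM of Cxcr6 in CD163_FL and 317 CPM in CD163_NC (0.85; 22.3% of genes higher, 18.4% lower). Type 3 innate lymphoid cell-like cells had 284 CPM in CD163_FL and 153 CPM in CD163_NC (0.89; 14.9% higher, 21.9% lower), and type 2 ones 327 CPM in CD163_FL and 245 CPM in CD163_NC (0.42, within 1.5-fold; 15.5% higher, 21.9% lower). Naive T cell-like cells had little, at 20.5 CPM in CD163_FL and 5.87 CPM in CD163_NC (1.80, with 14.0% higher and 17.5% lower). The overlapping gene Fyco1 had 11.4 CPM there in CD163_FL and 17.6 CPM in CD163_NC, the second of these above Cxcr6. The class also held a small Bend4-led cluster of 73 cells in CD163_FL and 6 in CD163_NC, which the class ratio does not level. Cells named for natural killer cells or type 1 innate lymphocytes (243 cells in CD163_FL, 29 in CD163_NC) had 19 UMIs in CD163_FL and 0 in CD163_NC, too few for a call (23.8% of genes higher, 22.6% lower).

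The order of Cxcr6 levels was partly shared. In CD163_FL it ran from CD4 (878 CPM) through gamma delta (570 CPM), type 2 innate lymphoid (327 CPM), type 17 helper (297 CPM), type 3 innate lymphoid (284 CPM) and CD8 cells (274 CPM) to follicular helper (206 CPM) and regulatory cells (136 CPM). The counting intervals of type 2 innate lymphoid, type 17 helper and type 3 innate lymphoid cells overlapped one another. Those of type 17 helper and type 3 innate lymphoid cells also overlapped that of CD8 cells. In CD163_NC it ran from gamma delta (317 CPM, 259 to 384) and CD4 cells (280 CPM, 266 to 294) through type 2 innate lymphoid cells (245 CPM). Type 3 innate lymphoid (153 CPM), type 17 helper (143 CPM), CD8 (91 CPM), regulatory (47.8 CPM) and follicular helper cells (12.2 CPM) followed. There the intervals of gamma delta, CD4 and type 2 innate lymphoid cells overlapped one another, as did those of type 3 innate lymphoid and type 17 helper cells. Cycling cells, outside these classes, had 457 CPM in CD163_FL and 230 CPM in CD163_NC.

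Different clusters made up the same class in each library, so the CD4 and CD8 values were read per cluster as well. In CD163_FL 1679 CD4 T cell-like cells were in the cluster led by Tnfrsf4 and 279 in the one led by Cd40lg, against 96 and 966 in CD163_NC. Cxcr6 was 926 CPM in CD163_FL and 492 CPM in CD163_NC in the first (0.91), and 449 CPM in CD163_FL and 256 CPM in CD163_NC in the second (0.81). In the CD8 clusters led by Cd8b1, Gzmk and Ccl5 the log2 ratios were 1.45, 1.43 and 1.06, with 2089, 732 and 281 cells in CD163_FL and 32, 30 and 654 in CD163_NC. Of 13 lymphocyte clusters with at least 20 cells in each library, Cxcr6 was called higher in 12 and had too few UMIs in 1. Its log2 ratios there ran from 0.62 to 4.08. Over all lymphocytes 10.5% of genes were called higher. The share per cluster was not computed, and it may be larger where a library has few cells. The CD4 cluster ratios were close to those of the gamma delta (0.85) and type 3 innate lymphoid (0.89) classes. Averaged over the clusters in the proportions of CD163_NC, the lymphocyte log2 ratio was 1.04.

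Cxcr3, the receptor of CXCL9 and CXCL10, differed less. It had 3745 UMIs in lymphocytes of CD163_FL and 992 in those of CD163_NC, or 68.7 CPM (66.5 to 70.9) in CD163_FL and 46.1 CPM (43.3 to 49.1) in CD163_NC. The log2 ratio of 0.58 (0.47 to 0.68) was a fold of 1.49 (1.39 to 1.6), just within 1.5. It was found in 28% of lymphocytes in CD163_FL and 19.6% in CD163_NC, or 5.29% in CD163_FL and 3.98% in CD163_NC when thinned, against 0.337% of thinned B cell-like cells in CD163_FL and 0.311% in CD163_NC. No lymphocyte had more than 12 Cxcr3 UMIs in CD163_FL or 7 in CD163_NC.

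Over the 10 classes Cxcr3 was called higher in 2, lower in 2, within 1.5-fold in 5 and had few UMIs in 1, near the share of all genes called. CD8 T cell-like cells had 86.4 CPM in CD163_FL and 64.5 CPM in CD163_NC (0.42), and CD4 T cell-like cells 75.3 CPM in CD163_FL and 70.1 CPM in CD163_NC (0.11, −0.06 to 0.27), whose difference was within counting error. Follicular helper T cell-like cells had 75.4 CPM in CD163_FL and 40.8 CPM in CD163_NC (0.89), and were also called higher for Cxcr6. Naive T cell-like cells had 15.4 CPM in CD163_FL and 3.82 CPM in CD163_NC (2.01), but in their main, Patj-led cluster (672 cells in CD163_FL, 625 in CD163_NC) the levels were 5.34 CPM in CD163_FL and 3.88 CPM in CD163_NC (0.46). Type 3 innate lymphoid cell-like cells had 17.4 CPM in CD163_FL and 35.6 CPM in CD163_NC (−1.03), and the natural killer cell-like class 7.6 CPM in CD163_FL and 58.1 CPM in CD163_NC (−2.93) from 10 UMIs in each library. Averaged over clusters in the proportions of CD163_NC, the lymphocyte log2 ratio was 0.13.

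The top of the order of Cxcr3 levels was shared by conventional T cells. In CD163_FL CD8 cells (86.4 CPM, 82.9 to 90.1) had follicular helper (75.4 CPM, 64.4 to 87.7) and CD4 cells (75.3 CPM, 70.8 to 80.1) next, and the first 2 overlapped in their intervals. In CD163_NC CD4 (70.1 CPM, 63.4 to 77.2), CD8 (64.5 CPM, 57 to 72.6), natural killer (58.1 CPM, 27.9 to 107) and type 17 helper cells (55.9 CPM, 43.9 to 70.2) overlapped in theirs. Type 2 innate lymphoid cell-like cells, high for Cxcr6, were at the low end for Cxcr3, with 5.35 CPM in CD163_FL and 3.3 CPM in CD163_NC. Plasma cell-like cells had 6.88 CPM in CD163_FL and 14.5 CPM in CD163_NC (−1.07).

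**Figure D4:**
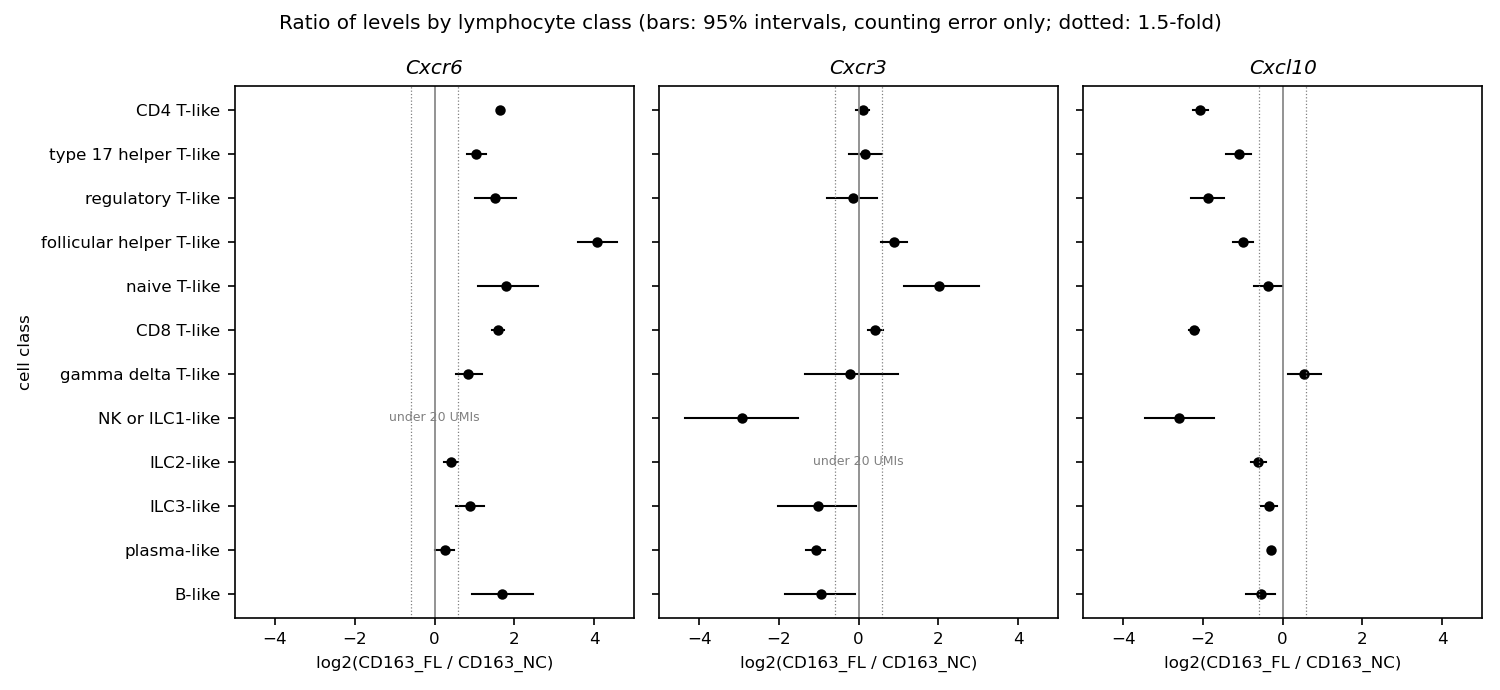
Log2 ratio of CD163_FL over CD163_NC (x axis, with 95% counting intervals) for Cxcr6, Cxcr3 and Cxcl10 by lymphocyte class; dotted lines mark 1.5-fold. Cxcr6 lies above 0 in every class with a value, up to 4.08 in follicular helper T cell-like cells, Cxcr3 lies on both sides, and Cxcl10 lies below 0 in all but gamma delta T cell-like cells.

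Cells with Cxcr3 held Cxcr6 more often than cells without it as deposited, and the gap was smaller once depth was matched. A Cxcr6 UMI was found in 77% of Cxcr3-positive lymphocytes of CD163_FL and 44.5% of CD163_NC, and in 54.3% of the others in CD163_FL and 29.3% in CD163_NC. When thinned, the shares were 28.4% with and 26.1% without Cxcr3 in CD163_FL, and 12.6% with and 9.98% without it in CD163_NC. Among thinned CD4 T cell-like cells the shares were 46.4% in CD163_FL and 18% in CD163_NC for Cxcr3-positive cells and 50.1% in CD163_FL and 19.9% in CD163_NC for the others. Both receptors were found in 21.6% of lymphocytes of CD163_FL and 8.71% of CD163_NC as deposited.

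In phagocytes, where 14.2% of all genes were called higher and 28.1% lower, of 15 measured genes known to be induced by interferon gamma 7 were called higher in CD163_FL, 0 lower and 8 within 1.5-fold, with a median log2 ratio of 0.53 against −0.18 over all genes. Cd274, which encodes the checkpoint ligand PD-L1, was 1165 CPM in CD163_FL and 379 CPM in CD163_NC (1.62). The guanylate-binding protein gene Gbp2 was 726 CPM in CD163_FL and 171 CPM in CD163_NC (2.09), Gbp5 203 CPM in CD163_FL and 55.7 CPM in CD163_NC (1.86), and Tap1, of peptide loading onto MHC class I, 324 CPM in CD163_FL and 214 CPM in CD163_NC (0.60). Psmb8, of the immunoproteasome, was 423 CPM in CD163_FL and 466 CPM in CD163_NC (−0.14). Of 10 genes known to be induced by type I interferon 0 were called higher, 8 lower and 2 within, with a median of −1.58. Isg15, a ubiquitin-like modifier, was 485 CPM in CD163_FL and 995 CPM in CD163_NC (−1.04), and Irf7, a transcription factor of the interferon response, 86.4 CPM in CD163_FL and 607 CPM in CD163_NC (−2.81). These phagocytes also differed in markers of other cells, with a summed plasma cell marker level of 3673 CPM in CD163_FL and 6389 CPM in CD163_NC, a B cell one of 83.7 CPM in CD163_FL and 230 CPM in CD163_NC, a CD8 T cell one of 673 CPM in CD163_FL and 862 CPM in CD163_NC, a neutrophil one of 137 CPM in CD163_FL and 343 CPM in CD163_NC and an epithelial one of 21.3 CPM in CD163_FL and 84.7 CPM in CD163_NC. Of the markers on these lists Ly6g alone was at 0, in CD163_FL. The makeup of the phagocytes differed too: macrophage markers summed to 1050 CPM in CD163_FL and 4551 CPM in CD163_NC, and the sub-cluster led by Slfn4, Ly6c2 and Ifit3, with Irf7 among its leading genes, was 50 of 1637 phagocytes in CD163_FL and 297 of 656 in CD163_NC. The part of these cells in the list values was not tested.

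The interferon gamma axis above the ligands was mixed in phagocytes, with 6 genes higher, 2 lower and 5 within of 13, and a median of 0.14. The kinase gene Jak2 was 825 CPM in CD163_FL and 342 CPM in CD163_NC (1.27), and the transcription factor gene Irf1 431 CPM in CD163_FL and 269 CPM in CD163_NC (0.68). The cytokine gene Il12b was 75.7 CPM in CD163_FL and 15.1 CPM in CD163_NC (2.33) and Il18 32.5 CPM in CD163_FL and 67.1 CPM in CD163_NC (−1.05). Among 11 genes that handle the ligands or carry receptor signals 1 was higher, 3 lower and 7 within (median −0.13): Adam17, which sheds CXCL16, was 243 CPM in CD163_FL and 174 CPM in CD163_NC (0.49), Adam10 50.4 CPM in CD163_FL and 55.1 CPM in CD163_NC, and Dpp4, whose product trims CXCL9 and CXCL10, 46.4 CPM in CD163_FL and 62.9 CPM in CD163_NC. Of 16 other chemokine genes 5 were higher, 6 lower and 5 within (median −0.37). The neutrophil attractant Cxcl2 was 5793 CPM in CD163_FL and 4005 CPM in CD163_NC and the monocyte attractant Ccl2 130 CPM in CD163_FL and 395 CPM in CD163_NC. Of 13 other chemokine receptors 4 were higher, 6 lower and 3 within (median −0.47), such as Ccr2 at 195 CPM in CD163_FL and 446 CPM in CD163_NC. The lists of lymphocyte genes gave, in phagocytes, 5 higher and 2 lower of 16 type 1 genes (median 0.08), 5 higher and 2 lower of 11 residence genes (0.56), and 2 higher and 2 lower of 7 recirculation genes (0.21).

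In lymphocytes, of 16 type 1 genes 7 were called higher, 3 lower and 6 within over all lymphocytes, with a median of 0.43. Over all genes 10.5% were called higher and 22.8% lower, with a median of −0.07. Within classes 4 were higher and 3 lower in CD4 T cell-like cells (median −0.13), and 3 higher and 5 lower in CD8 T cell-like cells (median −0.32). The interleukin 18 receptor gene Il18r1 was 710 CPM in CD163_FL and 243 CPM in CD163_NC (1.55), and the granzyme gene Gzmb 992 CPM in CD163_FL and 531 CPM in CD163_NC (0.90). Tbx21, which encodes the type 1 regulator T-bet, was 76.3 CPM in CD163_FL and 164 CPM in CD163_NC (−1.11), and Ifng, the inducer of CXCL9, 201 CPM in CD163_FL and 371 CPM in CD163_NC (−0.88). Ifng was −1.09 in the CD4 and −1.68 in the CD8 class. Clusters with Ifng and Tbx21 among their leading genes made up unlike parts of these classes. The Cd40lg-led one, nearest to the type 1 helper list and joined to CD4, held 279 of 1958 cells in CD163_FL and 966 of 1062 in CD163_NC. The Ccl5-led CD8 one held 281 of 3102 in CD163_FL and 654 of 716 in CD163_NC. The class values of listed genes do not level this makeup, whose part was not tested. The cycling cluster led by Ifng, with 273 cells in CD163_FL and 48 in CD163_NC, is not among these lymphocytes. Over all kept cells, with more lymphocytes in CD163_FL, Ifng was 125 CPM in CD163_FL and 116 CPM in CD163_NC (0.12). The interferon gamma axis had 2 genes higher, 5 lower and 4 within of 11 (median −0.22), and the genes induced by interferon gamma 2 higher, 2 lower and 10 within of 14 (median −0.04). All 10 genes induced by type I interferon were called lower in CD163_FL lymphocytes (median −1.96), for example Isg15 at 93.9 CPM in CD163_FL and 234 CPM in CD163_NC (−1.32). All 10 were also called lower in the CD4 and in the CD8 class, with the same limit of cluster makeup as for Ifng.

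Of 12 genes of tissue residence measured in lymphocytes, 0 were called higher, 3 lower and 9 within (median −0.05). That is near all genes there, with 10.5% higher, 22.8% lower and a median of −0.07. The most abundant, Rgs1, was 1154 CPM in CD163_FL and 805 CPM in CD163_NC (0.52), within 1.5-fold. Among those called lower, Cd69, which holds cells in tissue, was 264 CPM in CD163_FL and 442 CPM in CD163_NC (−0.74). Itgae, the integrin chain that binds epithelium, was 14.1 CPM in CD163_FL and 24.6 CPM in CD163_NC (−0.80). Of 7 recirculation genes 2 were higher, 3 lower and 2 within (median −0.21): S1pr1, the receptor for leaving tissue, was 166 CPM in CD163_FL and 63.9 CPM in CD163_NC (1.38), and Klf2, its regulator, 254 CPM in CD163_FL and 468 CPM in CD163_NC (−0.88). All 12 genes of ligand handling and receptor signalling were within 1.5-fold (median 0.06). Among 14 other chemokine receptors 4 were higher, 5 lower and 5 within (median −0.29), with the gut homing receptor Ccr9 at 51.8 CPM in CD163_FL and 19 CPM in CD163_NC (1.45) and the follicle homing receptor Cxcr5 at 5.04 CPM in CD163_FL and 27.1 CPM in CD163_NC (−2.42). Of 14 other chemokine genes 7 were higher, 5 lower and 2 within (median 0.39).

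**Figure D5:**
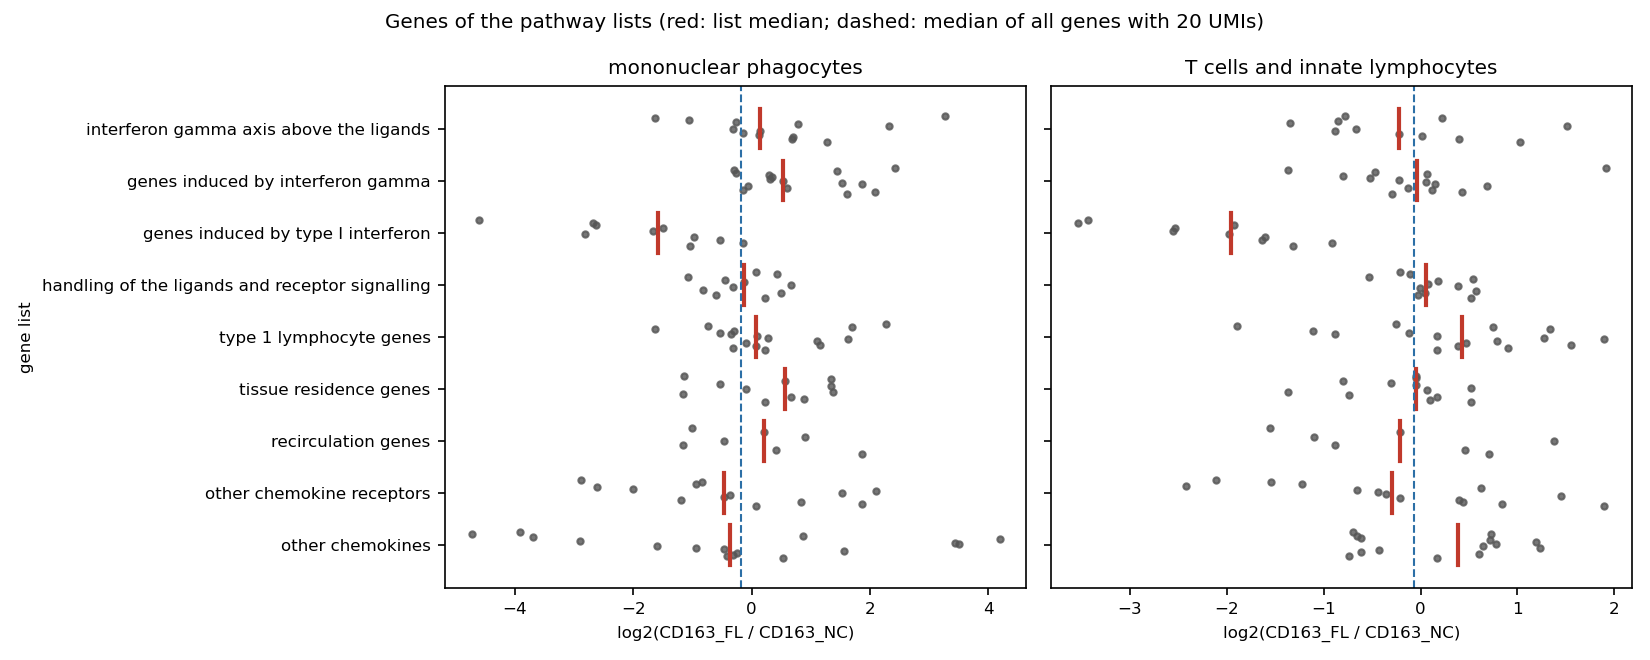
Log2 ratio of CD163_FL over CD163_NC for each gene of the pathway lists, in phagocytes and in lymphocytes; red marks give list medians and the dashed line the median over all genes. Type I interferon genes lie lowest in both, with medians of −1.58 in phagocytes and −1.96 in lymphocytes, and interferon gamma-induced genes lie above the dashed line in phagocytes with a median of 0.53.

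The genes whose levels were most like each member were found over 36 points, each a class in a library with at least 50 cells, among 7564 genes, as Pearson correlations of log2(CPM + 10). The points share libraries and the classes were made from variable genes of the same cells, so the values only describe. Cxcl9 and Cxcl16 were each other's nearest gene (0.966), followed for Cxcl9 by the interferon-inducible Ifi205 (0.959), Slamf8 (0.948), Ocstamp (0.944) and Gpr35 (0.932). For Cxcl16 they were Ifi205 (0.955), Sowahc (0.948), Rab7b (0.947) and Naaa (0.946). Cxcl10 stood apart, with 0.568 to Cxcl9 and no gene above 0.767: Tubb6 (0.767), Tmem176b (0.750), H2-T23 (0.748), Tex14 (0.746) and Ccrl2 (0.745). Cxcr6 was nearest to the checkpoint receptor gene Pdcd1 (0.907), Cish (0.904), Rora (0.877), Icos (0.876) and Il2ra (0.875). Cxcr3 was nearest to Ctla4 (0.900), Cd6 (0.896), Gimap7 (0.882), Cd3g (0.879) and Trac (0.877), and had 0.708 with Cxcr6.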

How the data were processed

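The deposited values are raw UMI counts per gene and cell, made by the authors with Cell Ranger 7.1.0 per the file headers; the genome build mm10 and Seurat 4 are named in the submitters' processing notes, and the strand setting of counting is not given in the sources used here. Cells with at least 500 UMIs, 200 genes and at most 10% mitochondrial UMIs were kept, and doublets called by Scrublet in each library (671 in CD163_FL, 257 in CD163_NC) were removed, leaving 118206691 UMIs in CD163_FL and 89553934 in CD163_NC. Both libraries were clustered together, without integration, in scanpy 1.11.5 (2000 variable genes without the 5 members, 30 components, 15 neighbours, Leiden resolution 2). The 36 clusters were named "-like" from 30 marker lists by a rule set after the clusters were seen, and 2 clusters stayed unnamed. UMIs were summed per class and library into CPM with exact Poisson intervals; shares have Clopper-Pearson intervals, also with cells thinned to 1000 UMIs, leaving out shallower cells (49 phagocytes in CD163_FL, 23 in CD163_NC). Ratio intervals are conditional binomial. The steps were tested on simulated data. The members and the 9 pathway lists were chosen with earlier results of these data known; the rule for naming was all members, listed genes with the most abundant first, and the 5 genes most like each member, and listed genes of lower abundance were picked after their values were seen. Cxcl11 and Mx1, on 2 lists, were not analysed here. With 1 library per label, no test was run. Some listed genes are not reported here by name.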

Additional observations from a re-analysis of the deposited data

How the results depend on the processing

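Of the alternatives run for the 5 compartment ratios, 48 left the log2 ratio within its counting interval, 34 moved it further, with Cxcl10 then below 0 in the makeup settings, and 1 turned the called Cxcl9 ratio round. Cxcr6 in lymphocytes stayed between 1.04 and 1.86, and Cxcr3 between 0.13 and 0.69. In phagocytes Cxcl16 ran from 0.11 to 1.11, Cxcl9 from −0.57 to 1.54 and Cxcl10 from −0.51 to 1.18. With the class makeup of CD163_NC the values were −0.57 for Cxcl9, −0.51 for Cxcl10, 0.11 for Cxcl16, 0.34 for Cxcr3 and 1.55 for Cxcr6, and with its cluster makeup 0.10, −0.01, 0.54, 0.13 and 1.04 in that order of genes. The class makeup does not level clusters within a class, and those of macrophage-like cells differed between the libraries. Taking cells by a marker gate gave 1.54 for Cxcl9, 0.94 for Cxcl10, 1.11 for Cxcl16 and 1.70 for Cxcr6. Keeping doublets gave 0.60 for Cxcl9, 0.14 for Cxcl10 and 0.24 for Cxcl16. Subtracting the median of all gene ratios gave 0.92, 0.42 and 0.56 for these ligands and 1.67 for Cxcr6. The mean over cells gave 0.66 for Cxcl9, 0.27 for Cxcl16, 0.37 for Cxcr3 and 1.54 for Cxcr6. Clustering each library on its own gave 0.64 for Cxcl9 and 1.86 for Cxcr6. Without sub-clusters led by T, B or plasma cell genes the ligands gave 0.68, 0.16 and 0.29. Subtracting the whole plasma cell-like level, an extreme setting, gave 1.18 for Cxcl10, and subtracting the B cell-like level 0.69 for Cxcr3. For Cxcr6, resolution 1 gave 1.70, a mitochondrial limit of 5% gave 1.67, and CPM without immunoglobulin, mitochondrial and ribosomal genes 1.55. Where a ratio moved, the cause was not tested, except that the makeup settings change only the weights of the classes or clusters. Of 540 alternative class levels, 459 stayed within their intervals and 81 moved. The cluster makeup, B cell-like level, low-depth cluster, shared barcode, unnamed T cluster and sub-cluster settings were chosen after seeing the data. No paired analysis was possible because each label has 1 library, so no replicate could be left out either. Depth limits Cxcr3 most, with a UMI in 5.29% of thinned lymphocytes in CD163_FL and 3.98% in CD163_NC.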
